A study of Mus musculus with 19 samples.

Results

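Skeletal muscle genes are described here in dorsal root ganglia, which hold the cell bodies of sensory neurons. The 43 genes were chosen by name from the 36682 genes of the deposited table, as transcripts of the contractile apparatus and its supply in striated muscle fibres. The series is bulk RNA sequencing of poly(A) RNA in stranded libraries from 19 male mice, 1 library per mouse. Each library held the L3 to L5 ganglia of the side of the knee, pooled within a mouse.

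All 19 mice were homozygous for the MaFIA transgene (macrophage Fas-induced apoptosis). It is known to be driven by the promoter of Csf1r, so that the dimerizing drug AP20187 can trigger death of macrophages and related myeloid cells. The mice had destabilization of the medial meniscus (DMM), a surgical model of osteoarthritis in the knee, or were unoperated (naive) and of matched age. DMM mice were sampled 8 weeks after surgery. AP20187 or vehicle was given by daily intraperitoneal injection on 5 consecutive days. The groups were naive with vehicle (n = 5, mice 1 to 5), naive with AP20187 (n = 4, mice 1, 3, 4 and 5), DMM with vehicle (n = 5, mice 32, 33, 34, 63 and 64) and DMM with AP20187 (n = 5, mice 58 to 62). Mice without the transgene were not analysed here.

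A muscle fibre shortens when myosin of the thick filament pulls on actin of the thin filament. Calcium released from the sarcoplasmic reticulum binds troponin C and permits that pull, and a calcium pump then returns it to the store. Fast and slow fibres build the same machine from different gene copies: fast fibres use Myh1, Myh2 and Myh4 as heavy chains, and slow fibres use Myh7. Fibres of these kinds are not cells of a sensory ganglion, which consists of neurons, satellite glia, Schwann cells, vessels, connective tissue and resident immune cells.

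By role, the members were 10 thick filament genes (Myh1, Myh2, Myh4, Myh7, Myl1, Myl2, Myl3, Mylpf, Mybpc1 and Mybpc2) and 9 thin filament genes (Acta1, Tnnt1, Tnnt3, Tnnc1, Tnnc2, Tnni1, Tnni2, Tpm2 and Neb). There were 9 genes of the Z-disc and the elastic scaffold (Actn2, Actn3, Ttn, Myoz1, Myot, Ldb3, Tcap, Xirp2 and Mypn) and 7 of calcium handling (Casq1, Atp2a1, Ryr1, Cacna1s, Hrc, Trdn and Srl). Energy supply had 6 genes (Ckm, Ckmt2, Eno3, Pgam2, Mb and Cox6a2), and 2 others were Klhl31 and Asb2. Of these, 13 were listed as fast-fibre genes and 7 as slow-fibre genes. All 43 passed the filter on low counts and were tested.

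Libraries held 60984830 to 74691396 counts. The 10 listed markers of sensory neurons were all tested, and summed to 5695 to 10650 CPM (counts relative to the library size after TMM scaling) in naive vehicle mice, 1345 to 7841 in naive AP20187 mice, 2776 to 9839 in DMM vehicle mice and 754 to 4721 in DMM AP20187 mice. The tissue label was thus borne out by its markers in every library, at unequal levels. Listed markers of granulocytes and their precursors summed to 369 to 7280 CPM with vehicle and 7942 to 28780 CPM with AP20187.

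Promoter windows are shown for the genes the results turn on: a fast heavy chain (Myh4), the muscle creatine kinase (Ckm), and the slow heavy chain and slow troponin T (Myh7 and Tnnt1) that rose with AP20187 in naive and in DMM mice. Each holds the 250 bases before the start of the gene, 5′ to 3′ on its own strand, from RefSeq on build GRCm38.p6. Capitals mark E-boxes (CANNTG), MEF2-type motifs (CTANNNNTAG), TATA boxes (TATAAA) and CArG boxes. Both strands were searched, and matches that overlap were each counted. The windows lie at chr11:67237562-67237811 (+) for Myh4, chr7:19410844-19411093 (+) for Ckm, chr14:54994627-54994876 (-) for Myh7 and chr7:4515976-4516225 (-) for Tnnt1.
Myh4: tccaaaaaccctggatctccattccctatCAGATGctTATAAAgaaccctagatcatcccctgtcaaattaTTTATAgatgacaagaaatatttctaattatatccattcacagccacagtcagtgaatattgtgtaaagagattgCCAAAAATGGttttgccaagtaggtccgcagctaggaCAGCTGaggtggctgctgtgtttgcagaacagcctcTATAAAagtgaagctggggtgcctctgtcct
Ckm: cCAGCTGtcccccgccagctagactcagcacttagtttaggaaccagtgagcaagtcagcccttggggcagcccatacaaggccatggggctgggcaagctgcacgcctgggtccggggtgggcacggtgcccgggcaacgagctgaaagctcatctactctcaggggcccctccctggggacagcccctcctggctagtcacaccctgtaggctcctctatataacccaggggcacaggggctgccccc
Myh7: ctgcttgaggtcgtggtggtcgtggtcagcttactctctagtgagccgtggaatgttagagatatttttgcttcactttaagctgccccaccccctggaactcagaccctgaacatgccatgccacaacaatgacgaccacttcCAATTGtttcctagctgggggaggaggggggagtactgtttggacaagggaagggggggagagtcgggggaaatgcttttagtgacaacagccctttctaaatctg
Tnnt1: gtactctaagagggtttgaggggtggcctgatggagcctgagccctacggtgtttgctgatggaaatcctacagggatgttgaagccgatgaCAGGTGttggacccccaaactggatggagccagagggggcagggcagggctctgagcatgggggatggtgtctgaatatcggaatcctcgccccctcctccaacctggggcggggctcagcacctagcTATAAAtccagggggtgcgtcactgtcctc
The Myh4 window held 2 E-boxes, 3 TATA boxes and 1 CArG box, whereas the Myh7 and Ckm windows held 1 E-box each and the Tnnt1 window 1 E-box and 1 TATA box. Windows were found for 33 of the 43 members. An E-box stood in 84.8% of them, against 66.0% of all 27025 promoter windows of that length, and a CArG box in 15.2% against 1.4%. A MEF2-type motif stood in 6.06% against 3.23%, and a TATA box in 18.2% against 13%. These matches describe letters in a window and were not tested.

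In the deposited table, on build GRCm39, Myh4 lies on the plus strand at chr11:67128855-67151272, Myh7 on the minus strand at chr14:55208141-55232083, and Tnnt1 on the minus strand at chr7:4507569-4519003. For 18 members an annotated gene overlapped on the opposite strand only, and for 1 (Trdn) also on the same strand. Myh7 overlaps Mhrt, an antisense RNA that held 0 to 4 counts in every library. Whether strand was used in counting is not given in the sources used here.

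Muscle transcripts were present in all 19 ganglion libraries, at levels that ran over a wide range. Summed over the 43 genes, they stood at 78.7 to 826 CPM (median 253) in naive vehicle mice and 3029 to 4699 CPM (median 3994) in naive AP20187 mice. DMM vehicle mice lay at 79.7 to 3476 CPM (median 216), and DMM AP20187 mice at 78.8 to 327 CPM (median 116). The highest DMM vehicle value belonged to mouse 32, which stood apart from the other 4 of its group, the next being mouse 63. In bulk tissue, fewer cells of a type and less RNA per cell cannot be told apart. As a share of all counts, the members took 0.296% to 0.44% in naive AP20187 libraries and 0.342% in DMM vehicle mouse 32. In the other 14 libraries the share lay between 0.00789% and 0.0853%.

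**Figure D1:**
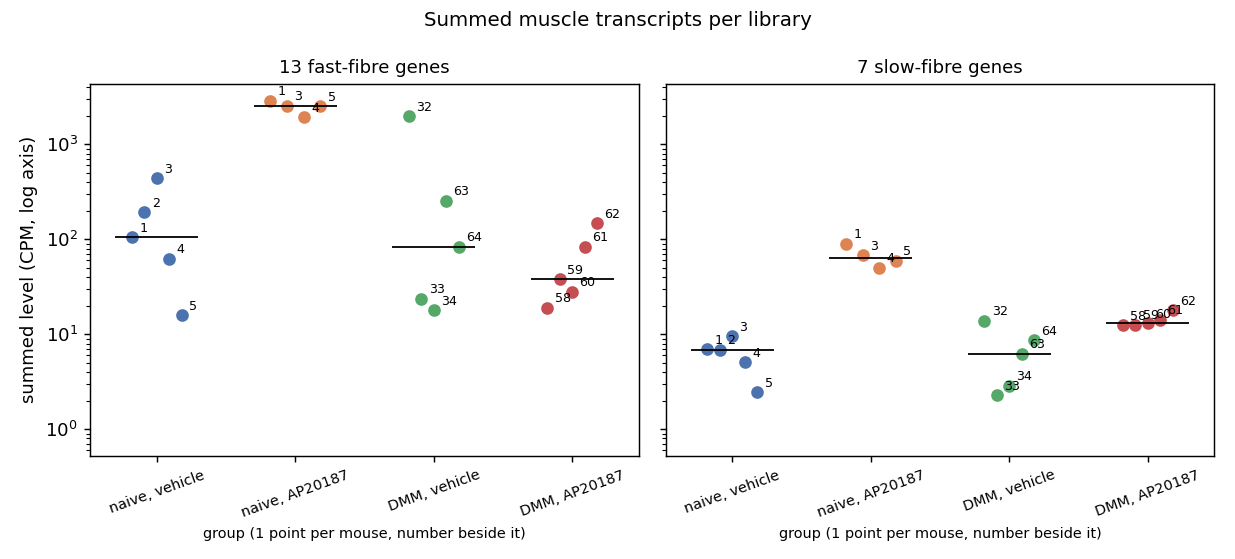
Summed level of 13 fast-fibre genes (left) and 7 slow-fibre genes (right) in each library, in CPM on a log axis. Each point is a mouse with its number and the line is the group median. Fast-fibre sums of naive AP20187 mice lay at 1932 to 2898 CPM, with DMM vehicle mouse 32 beside them at 1991, while slow-fibre sums of DMM AP20187 mice lay at 12.4 to 17.9 CPM, above 4 of the 5 DMM vehicle mice.

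AP20187 was compared with vehicle in naive mice, which had no surgery. Every muscle gene was higher with the drug: for all 43 members, each of the 4 AP20187 libraries exceeded each of the 5 vehicle libraries. Such a separation upward was seen for 9.39% of all 22778 genes tested. The median log2 fold change of the members was 3.39, against -0.066 over all genes. After adjustment over all genes, 25 members had risen and none had fallen, where 8.61% of all genes rose and 2.57% fell (edgeR quasi-likelihood test, Benjamini-Hochberg adjusted p under 0.05).

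Among thick filament genes, 5 of 10 rose: Myh7, Myl2, Myl3, Mylpf and Mybpc2. Myh4, the heavy chain of the fastest fibres, stood at 847, 795, 639 and 813 CPM in AP20187 mice 1, 3, 4 and 5. It stood at 15.03, 51.6, 120.4, 8.94 and 2.74 CPM in vehicle mice 1 to 5. The groups did not overlap, but the vehicle mice differed among themselves by a wide margin, and the log2 fold change of 4.28 (SE 1.37) missed the threshold (edgeR adjusted p = 0.0506). The fast heavy chains Myh1 (35.4 to 92.3 CPM against 0.374 to 10.4 CPM) and Myh2 (23.6 to 38.7 CPM against 0.107 to 4.22 CPM) did not pass either. Myh7, the heavy chain of slow fibres, stood at 16.1, 13.6, 9.46 and 12.7 CPM with AP20187 and at 0.960, 0.622, 0.787, 0.532 and 0.20 CPM with vehicle. All vehicle mice were below 1 CPM, and the log2 fold change of 4.38 (SE 0.42) was the largest of the members, with the smallest edgeR adjusted p of them (1.34e-05). Myl3, the slow essential light chain, stood at 8.54, 4.04, 4.60 and 4.54 CPM with AP20187 and at 0.194 to 0.645 CPM with vehicle (log2 fold change 3.61, SE 0.61). Its fast counterpart Myl1 had a log2 fold change of 3.58 (SE 1.20) and did not pass (edgeR adjusted p = 0.0601).

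Of the thin filament genes, 7 of 9 rose. Tnnt3, the fast troponin T, stood at 478, 410.3, 288 and 398 CPM with AP20187 and at 17.2, 27.1, 64.6, 14.2 and 1.95 CPM in vehicle mice 1 to 5. Vehicle mouse 3 was the highest and mouse 5 the lowest of their group, as they were for Myh4, and the log2 fold change was 3.98 (SE 1.12, edgeR adjusted p = 0.0288). Tnnt1, the slow troponin T, rose from a vehicle range of 0.428 to 1.39 CPM to 15.3, 11.9, 6.76 and 8.21 CPM (log2 fold change 3.67, SE 0.49, edgeR adjusted p = 0.000218). The calcium sensors rose as well, Tnnc2 of fast fibres by 4.16 (SE 1.11) and Tnnc1 of slow fibres by 2.65 (SE 0.42) on the log2 scale. Acta1, skeletal actin, was at 443, 308, 249.9 and 342 CPM with AP20187 and at 29.8, 35.6, 99.5, 15.6 and 2.61 CPM with vehicle, and did not pass (log2 fold change 3.20, SE 1.11, edgeR adjusted p = 0.0704). Tnni1, the slow troponin I, did not pass either, whereas its fast counterpart Tnni2 did.

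The remaining roles followed. At the Z-disc and scaffold 4 of 9 genes rose, among them Ttn, the giant elastic protein titin (log2 fold change 4.10, SE 0.99, edgeR adjusted p = 0.0137), and Actn3, the actinin of fast fibres (3.57, SE 1.05). Of calcium handling genes 4 of 7 rose: Casq1, the calcium store protein of fast fibres (3.48, SE 0.77), Ryr1, the release channel (3.13, SE 0.62), Cacna1s and Hrc. Atp2a1, the fast calcium pump, was at 303 to 449 CPM with AP20187 and 1.86 to 74.0 CPM with vehicle, and narrowly missed (edgeR adjusted p = 0.0525). Eno3, Pgam2 and Cox6a2 rose among 6 energy genes, while Ckm, at 208 to 332 CPM against 2.63 to 98.1 CPM, did not pass (edgeR adjusted p = 0.0925). Klhl31 and Asb2 rose. By fibre type, 7 of 13 fast and 5 of 7 slow genes passed, with median log2 fold changes of 3.77 and 3.49.

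The number of members that passed fell to 13 without AP20187 mouse 1, to 15 without AP20187 mouse 3, to 14 without vehicle mouse 1, to 15 without vehicle mouse 2 and to 16 without vehicle mouse 5, with all 43 still higher each time. A core of 12 members passed under every alternative run: Actn2, Eno3, Hrc, Myh7, Myl2, Myl3, Pgam2, Ryr1, Tnnc1, Tnnt1, Tpm2 and Ttn. Casq1 passed in every alternative but DESeq2, which gave it no p. Marker sums of other tissues that may lie beside a ganglion were also taken. For tendon they were 33.6 to 91.4 CPM with vehicle and 91.9 to 150.3 CPM with AP20187, ranges that did not overlap (0 of 5 genes passed). Of the tendon genes only Thbs4 lay apart, at 14.4 to 58.9 CPM with vehicle and 60.8 to 130.5 CPM with AP20187. The median log2 fold change of the tendon genes was -0.01, with Scx, Mkx and Tnmd below 0 and Fmod above 0. For smooth muscle the sums were 64.7 to 345 against 128 to 525 CPM (1 of 8 rose), and for adipocytes 5.24 to 30.5 against 23.8 to 39.4 CPM (1 of 7 rose). Markers of central glia summed to 45.1 to 52.9 CPM with vehicle and 22.9 to 43.6 CPM with AP20187, again without overlap, and 3 of 8 fell (Slc1a2, Olig1 and Mog). All 10 granulocyte genes rose. The part of any of these in the muscle result was not tested.

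**Figure D2:**
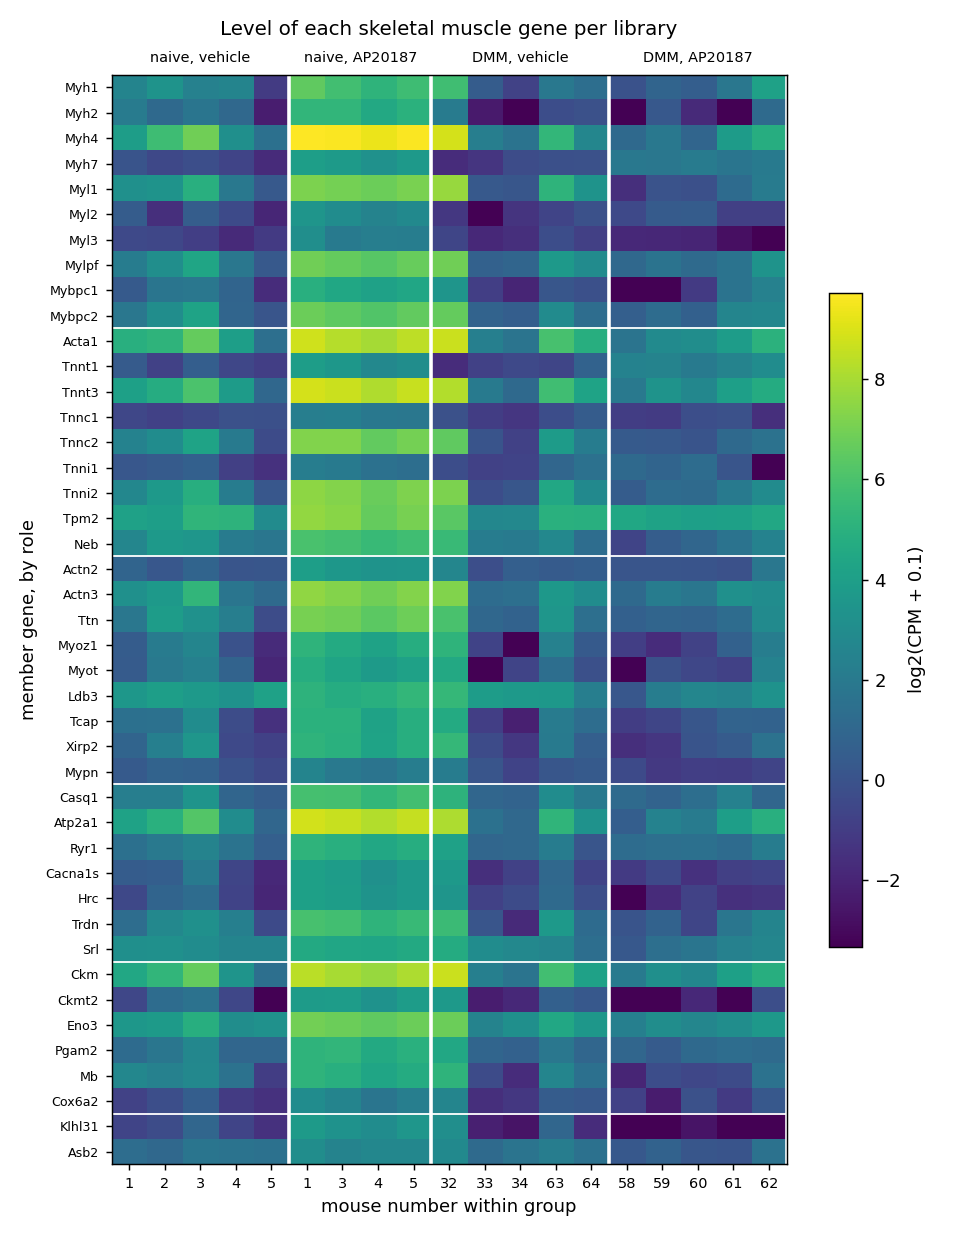
Level of each member (rows, ordered by role, white lines between roles) in each of the 19 libraries (columns, by group and mouse number), as log2(CPM + 0.1). The 4 naive AP20187 columns are high in every row. DMM vehicle mouse 32 is as high in most rows and low in Myh7, Tnnt1, Myl2 and Myl3.

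In DMM mice the same drug comparison gave calls in both directions. Myh7 and Tnnt1, both of slow fibres, rose, and 16 members fell, among them the fast light chains Myl1 and Mylpf and the fast troponins Tnnc2 and Tnni2. Over all genes 11.3% rose and 12.4% fell in this comparison (edgeR, adjusted p under 0.05). The median log2 fold change of the members was -2.35, against -0.096 over all genes, and 39 of 43 were below 0. Most of the falls rested on DMM vehicle mouse 32. Without that library 4 members passed (Myh7 and Tnnt1 higher, Asb2 and Klhl31 lower), the median was -0.56 and 12 members were above 0. Klhl31 had 0 counts in 4 of 5 AP20187 libraries. It missed the low-count filter when only the DMM groups were fitted, so its call in DMM mice carries little weight. Only Myh7 and Tnnt1 passed under every alternative run.

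For Myh7, the 5 AP20187 libraries (mice 58 to 62) stood close together at 3.64, 3.55, 4.21, 3.27 and 4.13 CPM. The vehicle libraries (mice 32, 33, 34, 63 and 64) stood at 0.216, 0.30, 0.726, 0.816 and 0.839 CPM. Every AP20187 mouse exceeded every vehicle mouse, and mouse 32 was the lowest of all 10 (log2 fold change 2.69, SE 0.39, edgeR adjusted p = 0.000267). For Tnnt1 the AP20187 libraries stood at 5.44, 5.51, 4.01, 5.63 and 7.95 CPM and the vehicle libraries at 0.216, 0.48, 0.636, 0.559 and 1.62 CPM. The ranges were again apart, with mouse 32 lowest (log2 fold change 3.02, SE 0.46, edgeR adjusted p = 0.000414). These were the 2 members with such a separation upward, which 8.71% of all genes showed, and no member separated downward.

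The other 5 slow-fibre genes did not share that rise. Myl2, the slow regulatory light chain, was at 0.459 to 1.30 CPM with AP20187 and 0 to 0.839 CPM with vehicle (log2 fold change 1.03, SE 0.69, edgeR adjusted p = 0.301). Tnni1 was at 2.08, 1.73, 2.34, 1.00 and 0 CPM in AP20187 mice and at 0.740, 0.48, 0.514, 1.86 and 2.80 CPM in vehicle mice (log2 fold change 0.16, SE 0.75). The groups overlapped, and mouse 62, which had the highest Tnnt1 of its group, had no Tnni1 count and lay below every vehicle mouse. Tnnc1 differed by -0.44 (SE 0.39) and Mybpc1 by -0.65 (SE 1.18) on the log2 scale, and neither passed. Mybpc1, listed here with the slow genes, ran with the fast genes across DMM AP20187 mice: it was at 0 counts in mice 58 and 59 and at 5.15 CPM in mouse 62. Myl3 fell, from 0.179 to 0.740 CPM to at most 0.182 CPM, or 12, 12, 10, 3 and 0 counts (log2 fold change -1.94, SE 0.59, edgeR adjusted p = 0.0258).

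Of the 13 fast-fibre genes 4 fell in DMM mice (Tnnc2, Mylpf, Tnni2 and Myl1), none of which passed without vehicle mouse 32, and their levels were widely spread. Myh4 stood at 2.09, 3.64, 1.80, 14.1 and 27.5 CPM in AP20187 mice 58 to 62 and at 468, 4.69, 3.07, 40.3 and 6.31 CPM in vehicle mice 32, 33, 34, 63 and 64. Mouse 32 lay more than an order above the others, which overlapped the AP20187 mice (log2 fold change -3.41, SE 1.29, edgeR adjusted p = 0.0623). Myl1 stood at 0.24, 0.907, 0.824, 2.29 and 4.14 CPM with AP20187 and at 212, 1.13, 1.04, 35.3 and 10.4 CPM with vehicle, and fell by 4.95 on the log2 scale (SE 1.26, edgeR adjusted p = 0.0104). It also passed with vehicle mice 63 and 64 alone, but not without mouse 32. Acta1 stood at 3.20, 7.57, 8.39, 14.6 and 32.8 CPM with AP20187 and at 411, 4.85, 3.12, 61.4 and 29.3 CPM with vehicle and did not pass (edgeR adjusted p = 0.0544). The median log2 fold change was -2.64 over the 13 fast genes and 0.16 over the 7 slow genes, of which 2 rose and 1 fell. No test compared fast with slow genes here other than the ratios of pairs given below.

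Outside the filaments, the genes that fell were Ldb3 and Mypn at the Z-disc, Cacna1s, Hrc and Srl of calcium handling, Mb, Ckmt2 and Eno3 of energy supply, and Klhl31 and Asb2. On the thin filament Neb, the nebulin ruler, fell too. Klhl31, a muscle protein of the kelch-like family, had 0, 0, 4, 0 and 0 counts in AP20187 mice 58 to 62 and 568, 8, 4, 125 and 15 counts in the vehicle mice. At such counts the size of its fitted fold change depends on the prior count of the model. Mb, myoglobin, stood at 0.152, 0.746, 0.595, 0.689 and 2.97 CPM with AP20187 and at 36.3, 0.701, 0.212, 6.14 and 2.74 CPM with vehicle (log2 fold change -3.17, SE 1.04, edgeR adjusted p = 0.0358). The AP20187 mice lay within the range of vehicle mice 33, 34, 63 and 64, except that mouse 58 was below it. Ckmt2, the mitochondrial creatine kinase, had 0 counts in 3 of 5 AP20187 libraries.

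The number of members that passed was 10 without AP20187 mouse 58, 59 or 60, 28 without vehicle mouse 34 and 29 without vehicle mouse 64. With vehicle mice 32, 33 and 34 alone it was 28, and with 63 and 64 alone it was 4. Sensory neuron markers moved in this comparison as well: 6 of 10 fell, with sums of 754 to 4721 CPM against 2776 to 9839 CPM. Of the granulocyte markers, 9 of 10 rose. Tendon marker sums were 46.5 to 119.6 CPM against 32.8 to 100.8 CPM, and 1 of 5 genes fell. The part of these in the muscle result was not tested.

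**Figure D3:**
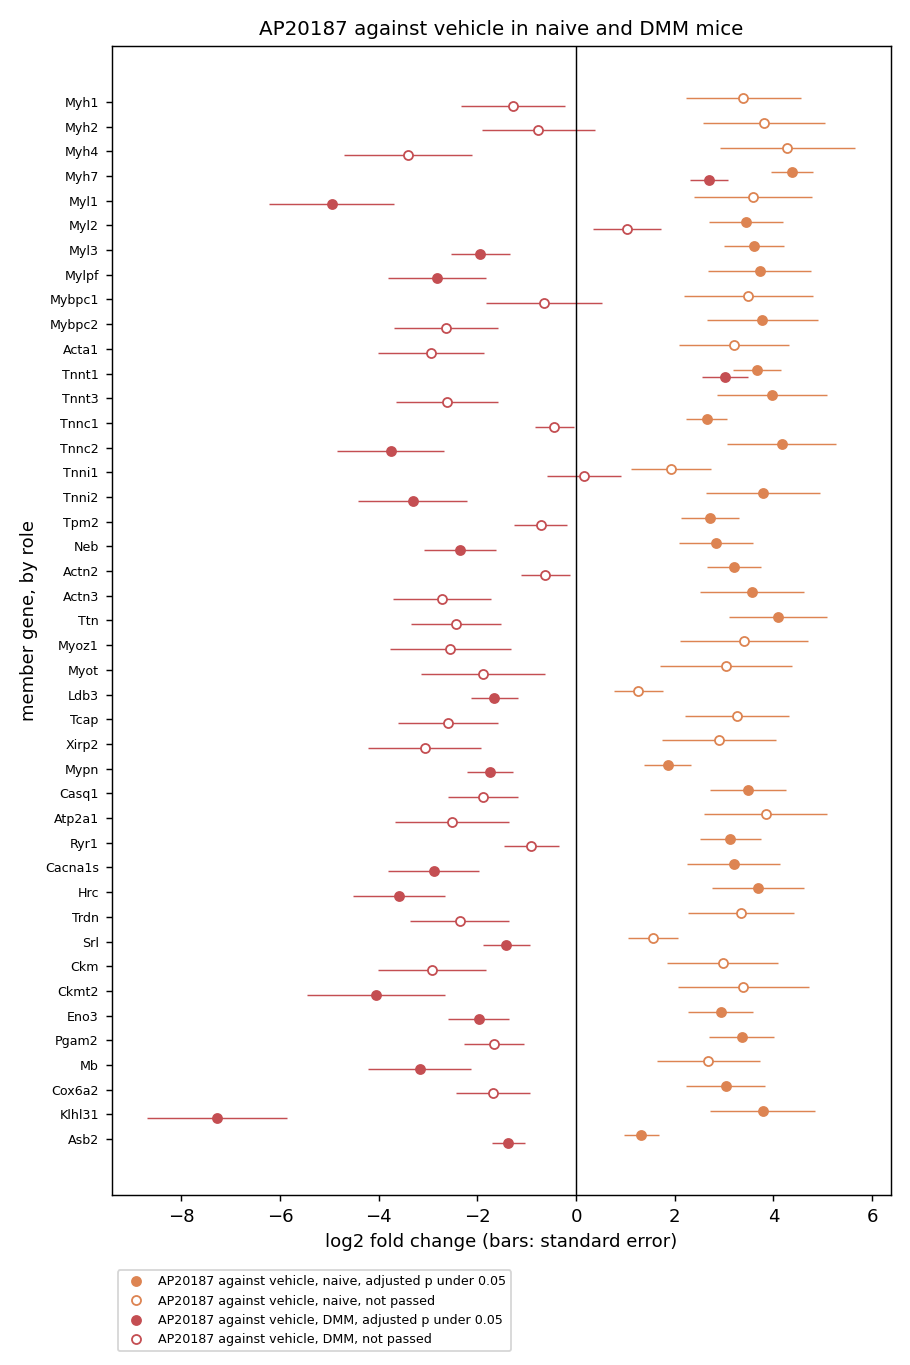
Log2 fold change of AP20187 against vehicle for each member in naive mice and in DMM mice, with the standard error as bars and filled points where the adjusted p was under 0.05. All 43 naive values are above 0, and 39 of 43 DMM values are below 0, with Myh7 and Tnnt1 the filled points above 0 in DMM.

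Surgery alone was compared in vehicle mice. No muscle gene passed the test between DMM and naive mice: 0 of 43 did, as did 0% of all genes (edgeR), and none had an unadjusted p under 0.05, the smallest being 0.057. DESeq2 also called 0. The median log2 fold change was 1.15 with 38 members above 0, but it was -0.53 with 6 above 0 once mouse 32 was left out. The direction for the members therefore turned on that library.

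Among mice given AP20187, DMM against naive was the comparison with the widest gap for muscle genes. All 43 were lower in DMM mice, 23 fell, and the median log2 fold change was -4.38, against -0.009 over all genes. Over all genes 0.439% fell and 0.263% rose (edgeR, adjusted p under 0.05). For 42 members every DMM library lay below every naive library, which 2.44% of all genes did. Tnnt1 was the exception, at 4.01 to 7.95 CPM in DMM and 6.76 to 15.3 CPM in naive mice (log2 fold change -0.89, SE 0.45, edgeR adjusted p = 0.328). This comparison shares its samples with both comparisons of AP20187 with vehicle above.

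The members that fell came from every role: 4 of 10 thick filament, 5 of 9 thin filament, 5 of 9 Z-disc and scaffold, 5 of 7 calcium and 2 of 6 energy genes, and Klhl31 and Asb2. Myh4 went from 639 to 847 CPM in naive to 1.80 to 27.5 CPM in DMM mice, which overlapped in no library, and still missed the threshold (log2 fold change -6.30, SE 1.5, edgeR adjusted p = 0.0554). The largest fall that passed was that of Klhl31 (log2 fold change -9.57, SE 1.49), whose size depends on the prior count. The log2 fold change was -6.31 (SE 1.23) for Tnnc2, -6.28 (SE 1.36) for Myl1, -5.79 (SE 1.03) for Hrc and -5.58 (SE 0.67) for Myl3. Of these Myl3 had the smallest edgeR adjusted p (0.000277). Myh7 fell by 1.78 (SE 0.38, edgeR adjusted p = 0.0441), a smaller difference than all other members but Tnnt1 and Tnni1, neither of which passed. The count of members that passed was 11, 6, 8 and 14 without DMM mouse 58, 59, 60 and 62 in turn, and 13 without naive mouse 1. Asb2, Klhl31, Myl3, Mypn, Pgam2 and Tnnc1 passed under every alternative run. Marker sums of sensory neurons (1345 to 7841 CPM in naive, 754 to 4721 CPM in DMM) and of granulocytes (7942 to 27210 and 16660 to 28780 CPM) overlapped between these groups. Those of central glia (22.9 to 43.6 and 35.4 to 48.8 CPM) overlapped too, and 1 of 8 rose in DMM mice (Slc1a2, log2 fold change 1.02, edgeR adjusted p = 0.0157). The part of these in the muscle result was not tested.

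The difference between the 2 comparisons of AP20187 with vehicle was tested as an interaction. All 43 values were negative, and 9 members passed, all lower: Mypn, Pgam2, Asb2, Hrc, Klhl31, Actn2, Myl3, Eno3 and Tnnc1. Over all genes 0.0659% were lower and 0.0483% higher (edgeR, adjusted p under 0.05), or 15 and 11 genes. Myl3 had a log2 interaction of -5.55 (SE 0.84, edgeR adjusted p = 0.00762). Myh7 (-1.69, SE 0.54, edgeR adjusted p = 0.351) and Tnnt1 (-0.65, SE 0.63, edgeR adjusted p = 0.913) did not pass, so a different drug response of these genes in naive and DMM mice was not shown. Leaving out DMM vehicle mouse 32 gave 11. The count was 1 to 4 without any 1 of the DMM AP20187 mice, DMM vehicle mouse 63, naive AP20187 mice 1, 3 or 4, or naive vehicle mice 1, 2, 4 or 5, and 16 to 19 without DMM vehicle mouse 33, 34 or 64. Myl3 alone passed under every alternative run.

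The fast and slow copies of a protein were then set against each other per library, in FPKM (fragments per library size and transcript length, which allows genes to be compared). The slow heavy chain Myh7 made up 0.944% to 1.15% of the summed FPKM of Myh1, Myh2, Myh4 and Myh7 in naive AP20187 mice and 0.424% to 4.22% in naive vehicle mice. In DMM vehicle mice 32, 33, 34, 63 and 64 the share was 0.0286%, 3.28%, 12.5%, 1.25% and 5.80%. In DMM AP20187 mice 58 to 62 it was 46.4%, 28.4%, 47.1%, 11.5% and 5.90%. Mice 58, 59 and 60 were above every other library, and mice 61 and 62 were below DMM vehicle mouse 34. Myh4 took 86.6% to 91.4% in naive AP20187 mice and 29.0% to 71.6% in DMM AP20187 mice. The Myh7 level itself was nearly flat over DMM AP20187 mice, at 0.434, 0.405, 0.486, 0.366 and 0.414 FPKM (0.4135 in mouse 62), while Myh4 ran over 0.360, 0.597, 0.299, 2.28 and 3.96 FPKM.

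**Figure D4:**
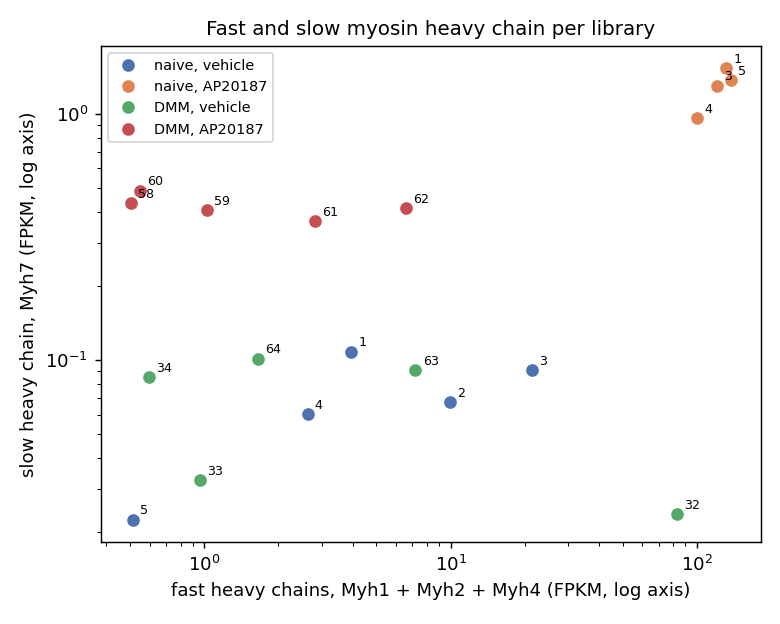
Summed FPKM of the fast heavy chains Myh1, Myh2 and Myh4 (horizontal, log axis) against FPKM of the slow heavy chain Myh7 (vertical, log axis), 1 point per library with its mouse number. DMM AP20187 libraries lie on a level at 0.366 to 0.486 FPKM of Myh7 whatever their fast heavy chain, and DMM vehicle mouse 32 lies at 0.0237 FPKM of Myh7 with 74.3 FPKM of Myh4.

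For 7 pairs of fast and slow copies, the log2 ratio of FPKM (pseudocount 0.1) was compared between groups in 28 exact two-sided permutation tests. None passed after Benjamini-Hochberg adjustment, but with a pseudocount of 1 in place of 0.1 there were 14 that passed, so the call turned on the pseudocount. The smallest adjusted p was 0.0889, and 4 against 5 mice cannot go below an exact p of 0.0159. For troponin T (Tnnt3 to Tnnt1) the ratio was 5.43, 5.55, 5.85 and 6.04 in naive AP20187 mice and -0.065, 1.34, 1.11, 1.95 and 2.13 in DMM AP20187 mice, with no overlap (mean difference -4.42, exact p = 0.0159, adjusted p = 0.0889). Its DMM vehicle values were 9.92, 3.07, 1.89, 6.57 and 3.87, and its naive vehicle values 2.19 to 5.83. The heavy chain, troponin C and troponin I ratios also lay wholly lower in DMM AP20187 than in naive AP20187 mice (mean differences -4.91, -3.50 and -4.23), and the light chain and myosin binding protein C ratios overlapped. With AP20187 against vehicle in DMM mice, all 7 mean ratios were lower and all 7 overlapped. In naive mice all 7 were higher, from 0.87 for myosin binding protein C to 2.74 for troponin I, the pair whose ranges did not overlap. In naive vehicle mice Myh7 stood at 0.0225 to 0.108 FPKM, about the pseudocount of 0.1. A pseudocount of that size lowers a ratio where the muscle signal is low, and 1 lowers it more. The ratios therefore also follow the level of muscle transcripts. By themselves the naive differences do not show a change of fast against slow copies.

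DMM vehicle mouse 32 was compared with the naive AP20187 group, the other libraries of high muscle signal, as a description of 1 library. Its fast-fibre genes stood at a median of 91.1% of the naive AP20187 mean (12.5% to 162.5%), and the 23 genes listed with neither type at a median of 99.4%. Its slow-fibre genes stood at a median of 10.2% (1.67% to 49.0%), and all 7 lay below the naive AP20187 range. Ckm was at 411 CPM, above the naive AP20187 mice, and Myh7 at 0.216 CPM, or 14 counts against 563 to 930. Granulocyte markers summed to 369 CPM in this mouse, the lowest of all 19 libraries, and sensory neuron markers to 8612 CPM. Of the 43 members, 31 had their highest level in naive AP20187 mouse 1, 8 in DMM vehicle mouse 32 and 4 in naive AP20187 mouse 3.

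The level of a member did not always go with that of the fast heavy chain. In DMM vehicle mouse 33, with 4.69 CPM of Myh4, Ldb3, a Z-disc adaptor, was at 14.6 CPM and Srl, sarcalumenin of the calcium store, at 7.95 CPM. In DMM AP20187 mouse 58, with 2.09 CPM of Myh4, they were at 1.08 and 1.12 CPM, their lowest levels in any library. Tpm2, a tropomyosin, was at 16.3 to 22.7 CPM in DMM AP20187 mice. Asb2, a ubiquitin ligase subunit, had the narrowest range of the 43, its highest library being 8.75 times its lowest, whereas Myh4 differed by 470.2 times and Myl1 by 874 times. In naive vehicle mice Ldb3 lay at 10.1 to 17.3 CPM and Asb2 at 2.04 to 3.21 CPM. Ldb3, Srl and Asb2 were also the members with the smallest naive drug differences (log2 fold changes 1.26, 1.56 and 1.32).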

How the data were processed

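Per the labels' protocols, poly(A) RNA was made into stranded TruSeq libraries. The authors deposited unnormalized counts per gene and, in a further table, counts with FPKM. The submitters' processing notes name cutadapt, HISAT2, StringTie and build GRCm39, with versions not given in the sources used here. Of 56691 entries in the count matrix, the 36682 genes of the table with names and FPKM were used. Members had equal counts in both tables (43 of 43).

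Counts were fitted with edgeR 4.0.16 in R 4.3.3 (TMM, filterByExpr with min.count 10, which kept 22778 genes), as a quasi-likelihood model of 4 groups over 19 libraries. P-values were two-sided and were adjusted by Benjamini-Hochberg over every gene tested, with a threshold of 0.05. CPM use TMM library sizes. The scripts were tested on simulated data. FPKM ratios used a pseudocount of 0.1 and exact permutation tests (scipy 1.17.1). Alternatives were DESeq2 1.42.0, limma 3.58.1 on log2 FPKM, no TMM, no filter, only the compared groups, subsets of DMM vehicle mice and each library left out.

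The members and lists were chosen with earlier results of these data known. All genes of the fast and slow pairs were named, with the 3 of highest FPKM per role. Per comparison, the 5 largest changes each way among members that passed were named too. Other genes named were chosen after their values were seen. Groups follow the labels, with 1 mouse per library.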

Additional observations from a re-analysis of the deposited data

Results flagged for a closer look

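DMM vehicle mouse 32 was far above the other 4 mice of its group for 35 of the 43 muscle genes, by the gap between the highest library and the next relative to the range of the group. The exceptions were Tpm2, Asb2 and the slow-fibre genes Myh7, Myl2, Myl3, Tnnt1, Tnnc1 and Tnni1. DMM AP20187 mouse 62 was likewise apart from its group for 8 members (Myh1, Mylpf, Actn2, Ttn, Myot, Ryr1, Ckmt2 and Mb). Naive vehicle mouse 3 was highest and apart for 2 (Eno3 and Klhl31). For 1 member each, the library apart was naive AP20187 mouse 1 (Myl3), naive AP20187 mouse 4 as the lowest (Ckmt2), DMM AP20187 mouse 61 (Casq1) and DMM AP20187 mouse 60 (Klhl31, 4 counts against 0). For independent, normally distributed values chance flags about 1 in 20 groups by this criterion. CPM of the members were skewed and moved together within a library, so that rate does not hold for these counts of flags.

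The response to AP20187 differed between DMM and naive mice for 9 members by the edgeR interaction test. The log2 interaction was -11.06 for Klhl31, whose size depends on the prior count since 4 of 5 DMM AP20187 libraries had 0 counts, -7.28 for Hrc and -5.55 for Myl3. It was -5.01 for Pgam2 and -4.91 for Eno3, enzymes of glycolysis, -3.83 for Actn2, -3.59 for Mypn, -3.08 for Tnnc1 and -2.70 for Asb2.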

How the results depend on the processing

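No setting reversed the direction of a member that had passed. Counts of members that passed, in the order AP20187 against vehicle in naive mice, the same in DMM mice, DMM against naive with AP20187, and interaction, were 25, 18, 23 and 9. DESeq2 gave 35, 27, 36 and 31, with no p for Casq1, Ckmt2 and Myh4 in any comparison. limma on log2(FPKM + 1) gave 42, 4, 41 and 18, and on log2(FPKM + 0.1) 40, 7, 41 and 10. Fits of only the compared groups gave 43, 5 and 37, with Klhl31 left untested by the filter in DMM mice. With no filter on low counts they were 21, 13, 17 and 2, and without TMM 25, 20, 27 and 8. With DMM vehicle mice 32, 33 and 34 alone, the DMM and interaction counts were 28 and 14, and with 63 and 64 alone 4 and 21. Leaving out each library gave 13 to 30, 4 to 29, 6 to 19 and 1 to 19. DMM against naive with vehicle stayed at 0 in every setting. The cause of these shifts was not tested.

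With the replicate block (naive mice 1, 3, 4 and 5) 43 members passed, and 39 passed in the same libraries unblocked. Deviations of same-numbered mice correlated at 0.008, 0.254, -0.053 and 0.223. These were not set against values of differently numbered mice, so they do not decide whether the numbers mark pairs. The labels give no pairing beyond the number. The ratio tests passed for 14 of 28 with a pseudocount of 1, which lowers ratios where the muscle signal is low. They passed for 0 pairs with any library left out, but fewer mice raise the smallest exact p the design allows, so this says nothing about stability.

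Over all genes in naive mice, 1962 rose and 586 fell. Without TMM these were 1550 and 915, and on log2(FPKM + 0.1) 1672 and 2553, where the median of all genes moved from -0.066 to -0.208. Low counts limit Klhl31, Ckmt2, Myh2, Mybpc1, Myot, Hrc, Myl3 and Tnni1, which had 0 counts in at least 1 DMM AP20187 library.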

Other observations

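Of 43 further skeletal muscle genes that are not members, 41 were tested. With AP20187 in naive mice 11 rose, where 8.61% of all genes did, among them Pygm, the muscle glycogen phosphorylase, and Des, desmin, and none fell. In DMM mice 8 fell with AP20187, where 12.4% of all genes did, and none rose (edgeR, adjusted p under 0.05). The others did not pass. Pygm stood at 84.1 to 112 CPM in naive AP20187 mice and at 4.14 to 33.1 CPM in naive vehicle mice. Genes of muscle stem cells and of developing fibres (0 of 6 tested) and of the neuromuscular junction (0 of 6 tested) passed in no comparison. Their summed levels could still lie apart. Stem cell and developing fibre genes stood at 11.04 to 14.96 CPM in naive AP20187 against 4.63 to 10.8 CPM in naive vehicle mice. Of these, Myh8 alone stood at 5.61 to 6.12 against 0.484 to 2.95 CPM. The median log2 fold change of the 6 tested was -0.15. In DMM AP20187 mice their sum was 3.37 to 8.37 CPM, also below naive AP20187 mice, with Myh8 at 0 to 1.27 CPM. Junction genes stood at 9.36 to 12.1 CPM in DMM AP20187, against 15.7 to 17.2 CPM in DMM vehicle and 12.7 to 16.5 CPM in naive AP20187 mice.

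Of 10 heart muscle genes, 9 were tested. In naive mice 1 rose with AP20187 (Actc1), and in DMM mice 1 rose (Myh6) and 1 fell (Myl4, log2 fold change -1.18, edgeR adjusted p = 0.016). Mybpc3, cardiac myosin binding protein C, stood at 1.57 to 2.24 CPM in DMM AP20187 and 0 to 0.677 CPM in DMM vehicle mice. It narrowly missed the threshold (log2 fold change 3.27, SE 1.22, edgeR adjusted p = 0.0586). Myh6, the heart alpha heavy chain and the neighbour of Myh7, was chosen after its values were seen. It stood at 3.05, 4.14, 4.24, 3.70 and 4.16 CPM in DMM AP20187 mice, at 0.707 to 1.36 CPM in DMM vehicle mice, at 0.567 to 0.857 CPM in naive AP20187 mice and at 0.855 to 1.70 CPM in naive vehicle mice. DMM AP20187 mice were above all other libraries (log2 fold change 1.89 against DMM vehicle, SE 0.258, edgeR adjusted p = 0.000158), and the interaction was 2.71 (edgeR adjusted p = 0.00274). In naive mice its log2 fold change with AP20187 was -0.83 (edgeR adjusted p = 0.0563). Actc1, cardiac actin, rose in naive mice, at 7.01 to 17.6 CPM with AP20187 and 0.4665 to 0.774 CPM with vehicle (edgeR adjusted p = 0.0208), and had a log2 fold change of -0.95 in DMM mice (edgeR adjusted p = 0.543).

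Myhas, an RNA annotated opposite Myh1, had 89, 42, 39 and 49 counts in naive AP20187 mice, 76 in DMM vehicle mouse 32, 32 in DMM vehicle mouse 63 and at most 6 in every other library.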
